A study of Cavia porcellus with 12 samples.

Results

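The transcripts described here encode the nuclear subunits of respiratory complexes III, IV and V in guinea pig liver. Members were the entries of the deposited gene table whose symbol begins with UQCR, with COX followed by a digit from 4 to 8, or with ATP5, plus *CYC1*. This gave 42 of 11896 symbols, of which 10 belong to complex III, 11 to complex IV and 21 to complex V. They rest on 40 rows of the count table, because *UQCRH* and *UQCRHL* share a row and *ATP5MG* and *ATP5MGL* share another. The rule used names and no measured value.

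Complex III passes electrons from reduced coenzyme Q to cytochrome c, and complex IV passes them from cytochrome c to oxygen. Both move protons across the inner mitochondrial membrane, and complex V, the ATP synthase, lets the protons flow back through a rotating ring and makes ATP. Most subunits are encoded in the nucleus and imported, while the catalytic centres of complexes III and IV and the proton channel of complex V also need proteins encoded in mitochondrial DNA. Hepatocytes are rich in mitochondria, and their respiratory chain oxidises fuel that includes fatty acids.

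Liver RNA was sequenced from 6 female Dunkin Hartley guinea pigs labelled NASH (nonalcoholic steatohepatitis), given a high-fat diet for 25 weeks, and from 6 labelled Control and healthy, given chow for 25 weeks. Each animal is 1 sample, and animals are named by the numbers in the labels. Per the study's methods, the animals were 10 weeks old on arrival, the NASH animals were chosen among high-fat-fed animals for bridging fibrosis, the controls were drawn at random from chow-fed animals without it, and the livers were not perfused. Diet and disease go together in every animal and cannot be told apart. The libraries of controls held 16980274 to 28636467 counts and those of NASH animals 23704607 to 33091460, and every pair of animals within a group differed by more than counting noise.

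Of the 42 members, 37 were lower in NASH, 0 were higher and 5 did not pass the test (edgeR's quasi-likelihood test, Benjamini-Hochberg adjusted p under 0.05 over all 11896 symbols). At an unadjusted p under 0.05 in edgeR, too, 0 members were higher, and DESeq2 called 38 lower and 0 higher. Over all symbols tested, 53.9% were called in either direction, 26.0% lower and 27.9% higher. All 6 NASH animals lay below all 6 controls in CPM (counts scaled to the same library size) for 31 members, against 15.3% of all symbols, and above all controls for 0 members, against 18.4%. The median log2 fold change (NASH minus control) of the members was -0.53, and that of all symbols was 0.00. The members ranged from -1.51 to 0.20.

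These directions are relative to the bulk of the genes, and the scaling of the libraries carries them. TMM scaling, used throughout unless another is named, sets the typical gene to no change; its factors ran from 0.80 to 0.88 for control libraries and from 1.12 to 1.24 for NASH libraries. The separations of the groups in CPM, above and below, also rest on these factors and were not counted with library size alone. As a plain share of all counts the members did not separate the groups. Their share ran from 0.449% to 0.540% in controls, with a median of 0.489%, and from 0.448% to 0.546% in NASH, with a median of 0.496%. Scaled by library size alone, the median log2 fold change was -0.05 for the members and 0.48 for all symbols, with 7 members lower and 6 higher, beside 7.66% of all symbols lower and 63.9% higher. The distance between both medians was -0.53 with TMM and -0.52 with library size alone. A change of scaling moves every gene by nearly the same amount, so this distance is fixed by construction and is no separate evidence.

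**Figure D1:**
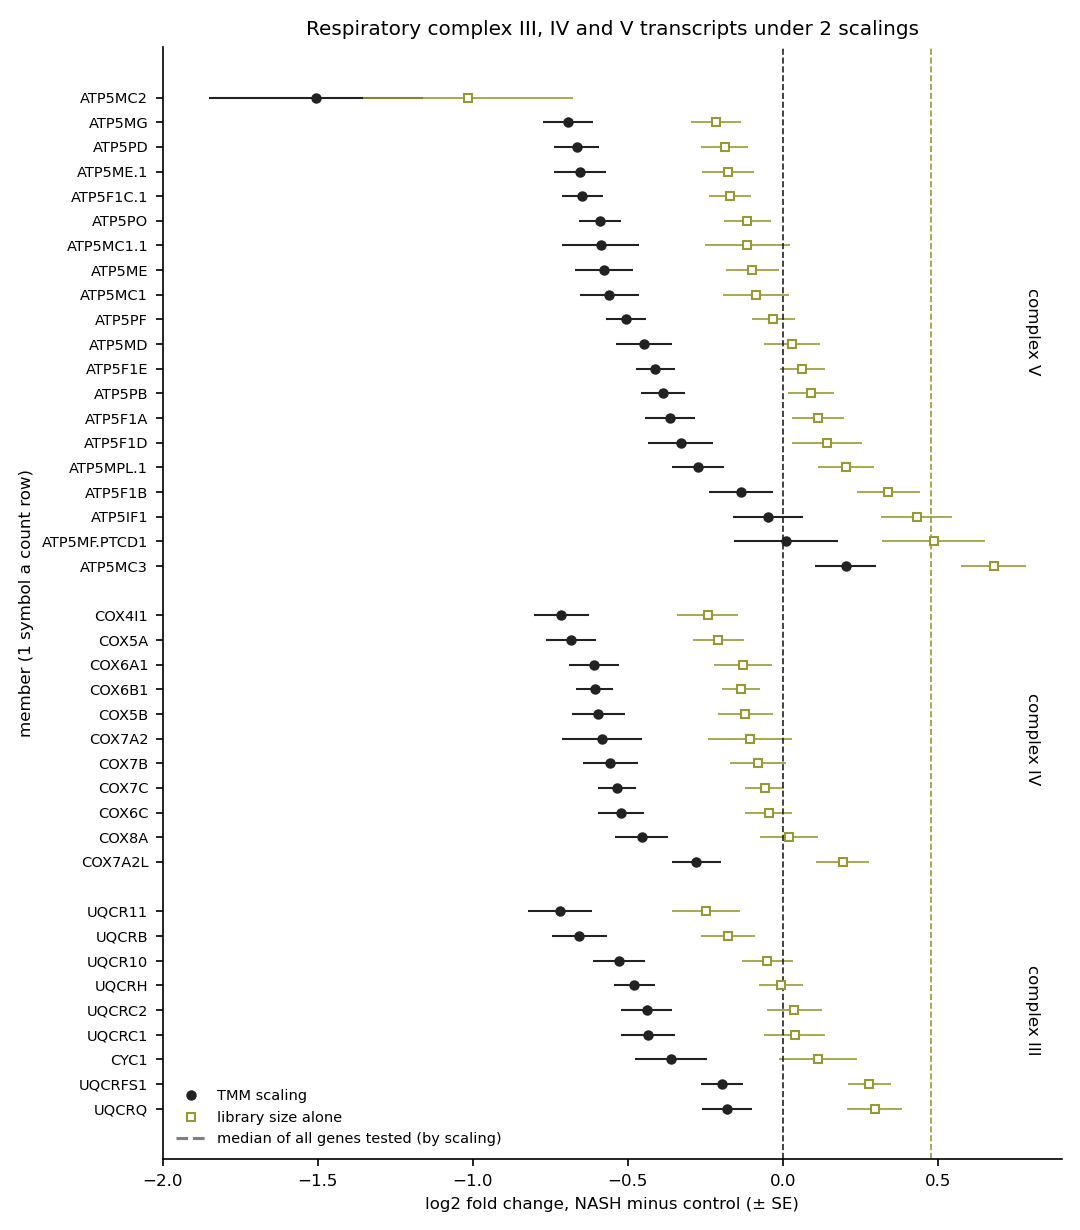
Log2 fold change (NASH minus control, x axis, ± SE, 6 animals a group) of each member, 1 symbol a count row, by complex, with TMM scaling (filled circles) and with library size alone (open squares). Dashed lines mark the median of all symbols tested under each scaling (0.00 and 0.48). Most members lie left of the line of their own scaling, while 15 members change sign between the scalings.

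Complex III members fell in 9 of 10 cases, with a median log2 fold change of -0.46 (0.02 with library size alone). The largest decreases were in small subunits outside the catalytic core. *UQCR11* ranged in controls from 50.5 through a median of 63.2 to 73.8 CPM, and in NASH from 33.8 through 36.7 to 44.5 CPM. Its log2 fold change was -0.72 ± 0.10 (SE, n = 6 a group, edgeR adjusted p = 8.1e-05), with no overlap between groups. *UQCRB*, which lies against the cytochrome b core, ranged from 131.9 through 141.6 to 186.9 CPM in controls, where Control 5 was highest, and from 85.7 through 95.1 to 106 CPM in NASH. Here, too, the groups were apart, with a log2 fold change of -0.66 ± 0.09 (edgeR adjusted p = 4.5e-05). Both rows also carry another symbol, *AC005943.1* for *UQCR11* and *MTERF3*, a mitochondrial transcription regulator, for *UQCRB*, so the counts belong to either gene of the row.

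At the other end of complex III stood *UQCRQ*, a small subunit beside cytochrome b. Its controls ranged from 88.4 through 100.7 to 111 CPM and its NASH animals from 75.9 through 88.0 to 99.7 CPM. The ranges overlapped, and the log2 fold change of -0.18 ± 0.08 did not pass the test (edgeR adjusted p = 0.074). It passed with DESeq2 (adjusted p = 0.049) and in edgeR without Control 56 (adjusted p = 0.038) or without NASH 2 (adjusted p = 0.037). *UQCRFS1*, the Rieske iron-sulphur protein that takes electrons from coenzyme Q, fell by 0.20 on the log2 scale (edgeR adjusted p = 0.024), a call that was lost without Control 45 (adjusted p = 0.052) or without NASH 9 (adjusted p = 0.055). *CYC1*, cytochrome c1, which hands the electrons on, fell by 0.36 (edgeR adjusted p = 0.019), with overlap between the groups. Both calls were also lost with upper-quartile factors (adjusted p = 0.13 and 0.055) and with every row with a count tested (adjusted p = 0.27 and 0.11). The core proteins *UQCRC1* and *UQCRC2* fell by 0.44 each, and *UQCR10* and the hinge protein *UQCRH* fell by 0.53 and 0.48. In these 4 every NASH animal was below every control.

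Complex IV was the one complex of which every member fell, 11 of 11, with a median log2 fold change of -0.58 (-0.11 with library size alone). *COX4I1*, the subunit 4 isoform of most tissues, ranged in controls from 173.1 through 184.1 to 243.2 CPM and in NASH from 107.1 through 117.9 to 126.9 CPM. The log2 fold change was -0.71 ± 0.09 (edgeR adjusted p = 2.3e-05); Control 31 stood above the other controls, and the groups did not overlap. *COX5A* ranged from 112.8 through 117.6 to 147 CPM in controls and from 73.1 through 78.6 to 82.9 CPM in NASH. It too separated the groups, with a log2 fold change of -0.68 ± 0.08 (edgeR adjusted p = 1.6e-05). The other subunits that surround the catalytic core, *COX5B*, *COX6A1*, *COX6B1*, *COX6C*, *COX7A2*, *COX7B*, *COX7C* and *COX8A*, fell by between 0.46 and 0.61 on the log2 scale, each without overlap. *COX6A1* and *COX7A2* are the isoforms that liver uses in place of those of heart and skeletal muscle.

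*COX7A2L*, a relative of *COX7A2* that joins complexes III and IV into supercomplexes, moved least in complex IV. Its controls ranged from 31.1 through 37.6 to 39.4 CPM and its NASH animals from 27.3 through 29.3 to 33.7 CPM. Control 5 was lowest among controls and lay inside the NASH range. The log2 fold change was -0.28 ± 0.08 (edgeR adjusted p = 0.010), and the call was lost with upper-quartile factors (adjusted p = 0.051) and with every row with a count tested (adjusted p = 0.093).

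**Figure D2:**
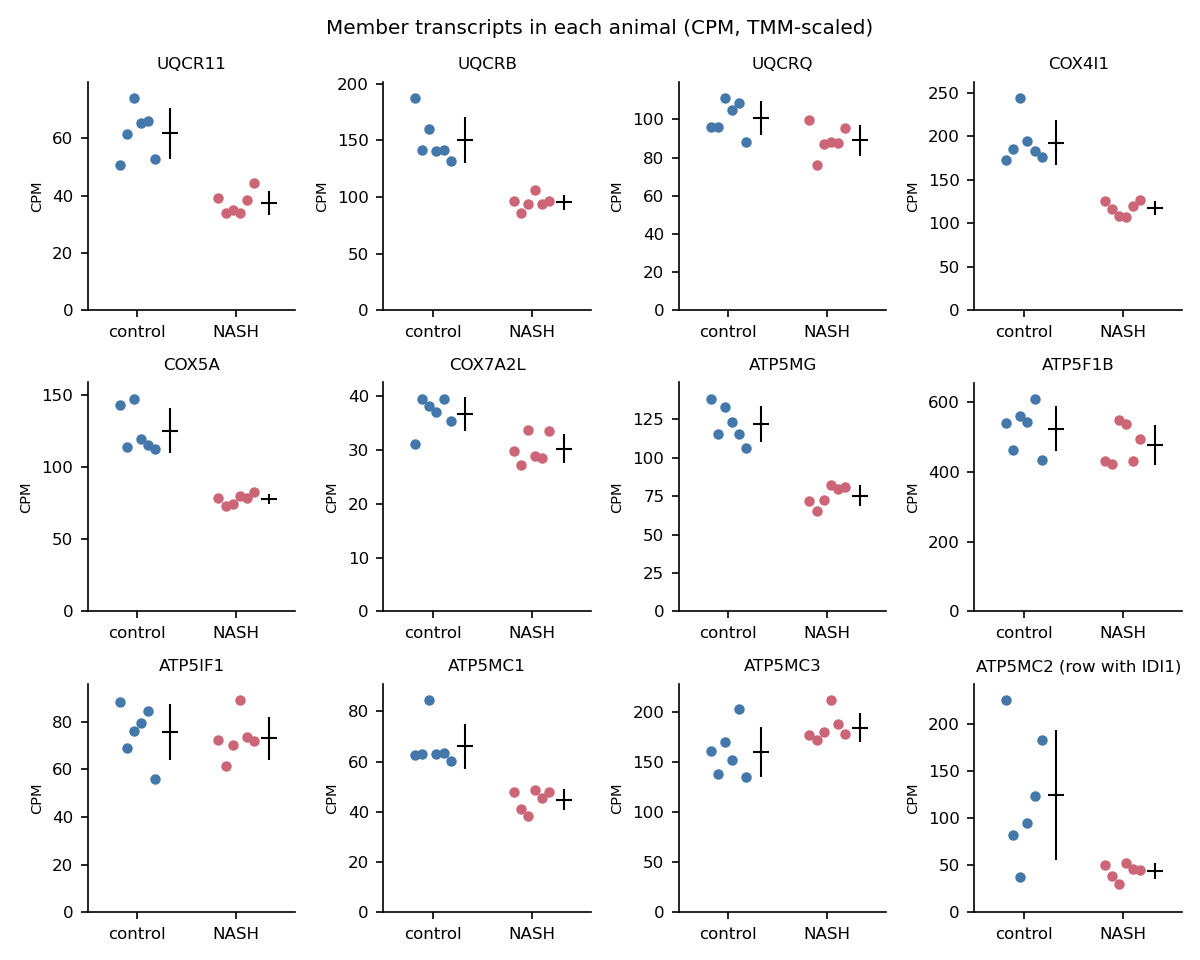
CPM (TMM-scaled, y axis from 0) of 12 members in each of the 6 control and 6 NASH animals (points), with mean ± SD beside each group. *UQCR11*, *UQCRB*, *COX4I1*, *COX5A*, *ATP5MG* and *ATP5MC1* do not overlap between groups, while *ATP5MC3* overlaps with the higher mean in NASH. With library size alone *UQCRQ*, *COX7A2L*, *ATP5F1B* and *ATP5IF1* turn to the higher side in NASH.

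Complex V showed the widest spread of the 3 complexes: 17 of 21 members fell, 4 did not pass the test, and the median log2 fold change was -0.51 (-0.03 with library size alone). The catalytic head holds subunits alpha and beta around the central stalk of gamma, delta and epsilon. Its alpha subunit *ATP5F1A* fell by 0.36 on the log2 scale and the stalk subunits gamma (*ATP5F1C.1*), delta (*ATP5F1D*) and epsilon (*ATP5F1E*) by 0.65, 0.33 and 0.41. The call of *ATP5F1D* was lost in edgeR with upper-quartile factors (adjusted p = 0.055) and with every row with a count tested (adjusted p = 0.12). The beta subunit *ATP5F1B*, which carries the catalytic sites, ranged from 432.7 through 541.2 to 607.4 CPM in controls and from 421.7 through 462.6 to 549.2 CPM in NASH. These ranges overlap for most of their length, and the log2 fold change of -0.14 ± 0.10 did not pass the test (edgeR adjusted p = 0.28). The peripheral stalk that holds the head still, *ATP5PB*, *ATP5PD*, *ATP5PF* and *ATP5PO*, fell by 0.39, 0.67, 0.51 and 0.59, each with all NASH animals below all controls; the row of *ATP5PO* also carries *AP000311.1*.

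The small membrane subunits that help ATP synthase form dimers also fell. *ATP5MG*, subunit g, ranged from 106.7 through 119.7 to 138 CPM in controls and from 65.4 through 76.1 to 82 CPM in NASH, with a log2 fold change of -0.69 ± 0.08 (edgeR adjusted p = 1.5e-05). Its groups were well apart. Subunit e has 2 entries, *ATP5ME* and *ATP5ME.1*, which fell by 0.58 and 0.65. *ATP5MD* and *ATP5MPL.1*, accessory proteins of the membrane part, fell by 0.45 and 0.27; for the second the groups overlapped, and its call was lost in edgeR with upper-quartile factors (adjusted p = 0.067) and with every row with a count tested (adjusted p = 0.13). Subunit f was present as the readthrough entry *ATP5MF.PTCD1*, on a row that also carries *PTCD1*, at 1.8 through 3.2 to 3.5 CPM in controls and 2.5 through 2.9 to 3.9 CPM in NASH. It had the fewest counts of all members, and its log2 fold change was 0.01 ± 0.17 (edgeR adjusted p = 0.97). The inhibitor *ATP5IF1*, which stops the enzyme from running backwards, ranged from 56 through 77.7 to 88.3 CPM in controls and from 61.5 through 72 to 88.9 CPM in NASH. Its log2 fold change of -0.05 ± 0.11 did not pass the test (edgeR adjusted p = 0.74), and the groups covered almost the same range.

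The ring of c subunits that turns with the proton flow is encoded by 3 genes whose products share the same mature protein and differ in the import sequence. *ATP5MC1* ranged from 60.2 through 63.1 to 84.3 CPM in controls and from 38.2 through 46.6 to 48.7 CPM in NASH, with no overlap and a log2 fold change of -0.56 ± 0.09 (edgeR adjusted p = 0.00028). A second entry, *ATP5MC1.1*, fell by 0.59 (edgeR adjusted p = 0.0015). *ATP5MC3* was the only member with a positive log2 fold change over 0.1. It ranged from 135.2 through 156.9 to 203.3 CPM in controls, with Control 45 highest, and from 171.5 through 178.9 to 211.4 CPM in NASH. At 0.20 ± 0.10 it did not pass the test (edgeR adjusted p = 0.10); without Control 45 it was 0.28 and passed (adjusted p = 0.012), and it also passed with upper-quartile factors (adjusted p = 0.032) and with library size alone (0.68, adjusted p = 7.8e-05).

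*ATP5MC2*, the other c-subunit gene, has the lowest log2 fold change of all members, -1.51 ± 0.35 (edgeR adjusted p = 0.0026), but its count row also carries *IDI1*, an enzyme of isoprenoid and cholesterol synthesis. Controls ranged from 37.3 through 109.4 to 225.3 CPM and NASH animals from 29.9 through 45.5 to 52.7 CPM. Control 31, at 37.3 CPM, lay inside the NASH range. Reads of both genes cannot be separated in this row, so the decrease is not assigned to *ATP5MC2*. Among the 33 members whose row carries no other symbol, a subset chosen after the data were seen, 29 were lower, 0 higher and 4 not called, with a median of -0.51.

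A ratio of 2 members within an animal hardly depends on how libraries are scaled. Of 14 pairs of isoforms or partner subunits considered, 5 could be tested, by exact permutation of the 12 animals (two-sided, adjusted over the 5 pairs); the smallest p this design allows is 0.0022. The log2 ratio of *ATP5MC1* to *ATP5MC3* ranged from -1.68 through -1.22 to -1.01 in controls and from -2.23 through -2.05 to -1.89 in NASH. The difference was -0.77 (exact p = 0.0022, adjusted p = 0.011, lower in 6 of 6 NASH animals than in any control). Leaving out single animals moved it between -0.85 and -0.72.

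The ratio of *COX7A2L* to *COX7A2* was higher in NASH by 0.33 on the log2 scale (exact p = 0.043) and did not pass after adjustment (adjusted p = 0.11). NASH 11, with 48.2 CPM of *COX7A2* against 68.8 to 86.3 CPM in the other NASH animals, stood apart at a log2 ratio of -0.51, and without this animal the difference was 0.17. The other 3 pairs gave differences of 0.09 for the inhibitor *ATP5IF1* to *ATP5F1B* (exact p = 0.27), -0.08 for *COX5A* to *COX5B* (exact p = 0.22) and 0.01 for *UQCRC1* to *UQCRC2* (exact p = 0.91). None of these 3 passed after adjustment (adjusted p = 0.34, 0.34 and 0.91). Pairs of the liver isoforms with those of heart, skeletal muscle or testis were not analysed here.

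Each member was also set against the mean of the other members in the same animal, as a description that the scaling hardly moves. This mean itself fell against the typical symbol, so a member with little change tends to lie above it. The share of all symbols that would do so was not computed. In 6 members all NASH animals lay above all controls. These were *ATP5MC3*, with a mean log2 difference of 0.71, *ATP5MF.PTCD1* with 0.52, *ATP5IF1* with 0.44, *ATP5F1B* with 0.35, *UQCRQ* with 0.30 and *UQCRFS1* with 0.29. For *ATP5MF.PTCD1*, with 27 to 133 counts an animal, NASH 65 at -5.081 and Control 45 at -5.088 were nearly level. Their order can turn with the prior count, so this separation is not firm. Only *ATP5MG* lay below in all NASH animals, with -0.22. The other 33 rows overlapped between groups and, with *ATP5MC2* aside at -0.86, differed by between -0.24 and 0.21. Of these 7, 5 belong to complex V and 2 to complex III.

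**Figure D3:**
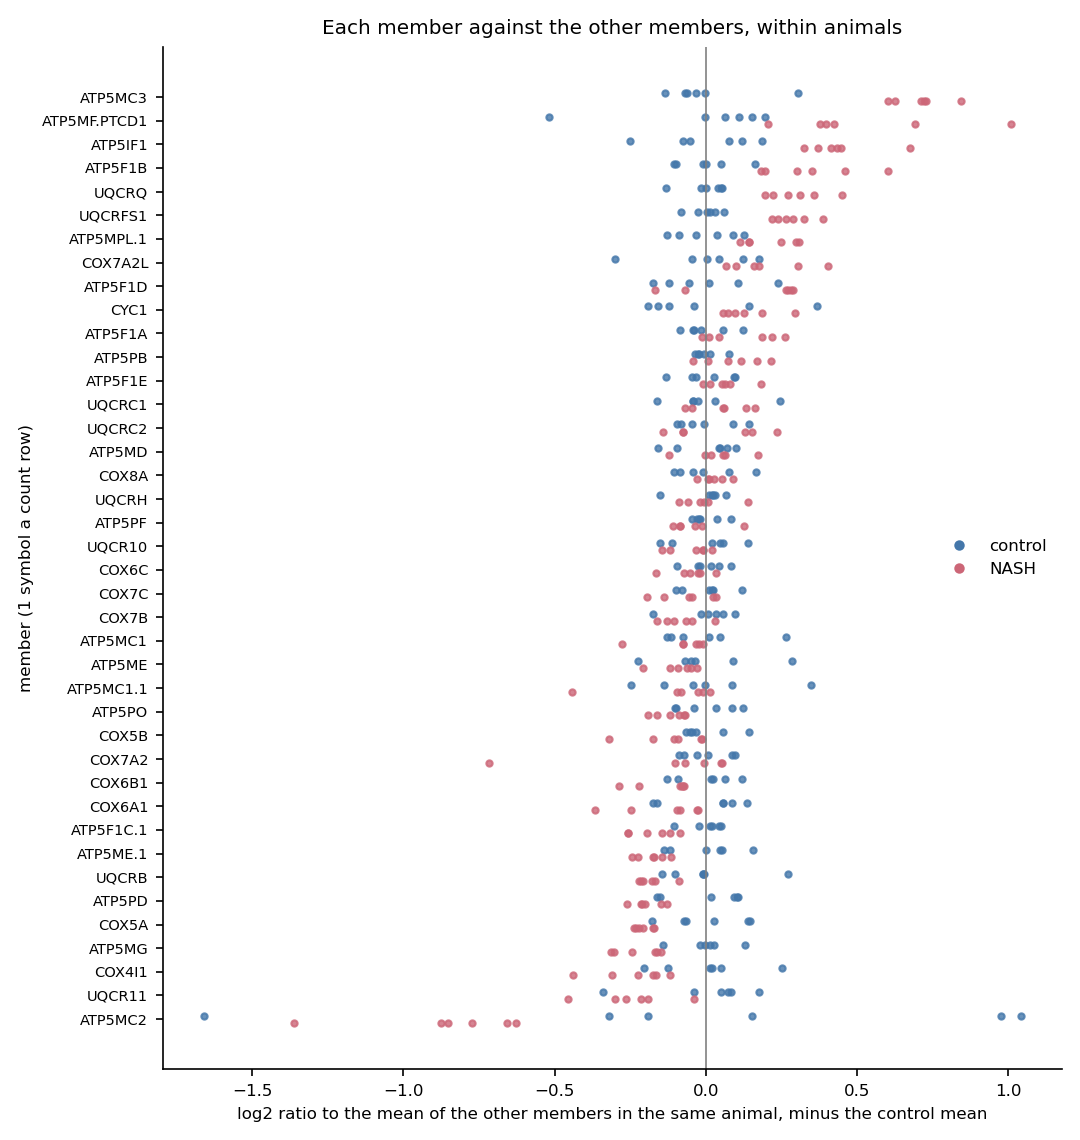
Log2 ratio of each member (1 symbol a count row) to the mean of the other members in the same animal, minus the control mean (x axis), for the 6 control and 6 NASH animals (points). *ATP5MC3*, *ATP5IF1*, *ATP5F1B*, *UQCRQ* and *UQCRFS1* lie to the right in all NASH animals, by a mean of 0.29 to 0.71. *ATP5MF.PTCD1* lies to the right by a mean of 0.52, but NASH 65 and Control 45 are nearly level. *ATP5MG* and *ATP5MC2* aside, the group means of the other members differ by between -0.24 and 0.21.

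Animals differed in the members as a set. Summed over the 40 rows, the members reached 5128 to 6171 CPM in controls, with a median of 5902, and 3859 to 4490 CPM in NASH, with a median of 4241. Control 56 was the lowest control in 31 of the 40 rows and NASH 9 the lowest NASH animal in 25. Control 31 and NASH 20 were the highest of their group in 16 rows each. Within controls the median correlation between pairs of members over the 6 animals was 0.54 and within NASH 0.41, over 780 pairs each, beside 0.00 for pairs among rows taken evenly from all genes; the points share their libraries. The lowest mean correlation with the other members was that of *ATP5MC2* in controls (-0.42, and 0.28 in NASH) and that of *ATP5MF.PTCD1* in NASH (-0.58, and 0.56 in controls).

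The subunits of the same complexes that are encoded in mitochondrial DNA were lower in NASH as well. Of the 5 found of 6 listed, 5 fell, with a median log2 fold change of -0.87. *MT-CO2*, which takes electrons from cytochrome c, ranged from 734.1 through 851.4 to 1501 CPM in controls and from 425.5 through 470.5 to 523.9 CPM in NASH, with a log2 fold change of -0.995 ± 0.16 (edgeR adjusted p = 0.00018). *MT-CYB*, the cytochrome b of complex III, fell by 0.57, and *MT-CO3* and *MT-ATP6*, which share a row, by 0.87. *MT-CO1*, the subunit that reduces oxygen, moved least, with -0.32 ± 0.13 (edgeR adjusted p = 0.049) and an overlap of the groups. With library size alone, 3 of the 5 were lower and 0 higher, with a median of -0.39.

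Counts of the mitochondrial genome rows of these complexes, over those of the nuclear member rows, gave a ratio within each animal. It ran from 0.638 to 1.12 in controls, where Control 5 was highest, and from 0.601 to 0.715 in NASH, so the groups overlapped. The 7 complex I subunits of mitochondrial DNA, on 6 count rows since *MT-ND4* and *MT-ND4L* share 1, all fell as well, with a median of -0.83 (with library size alone, 5 lower, 0 higher and a median of -0.35), from *MT-ND2* at -0.89 to *MT-ND6* at -0.53.

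**Figure D4:**
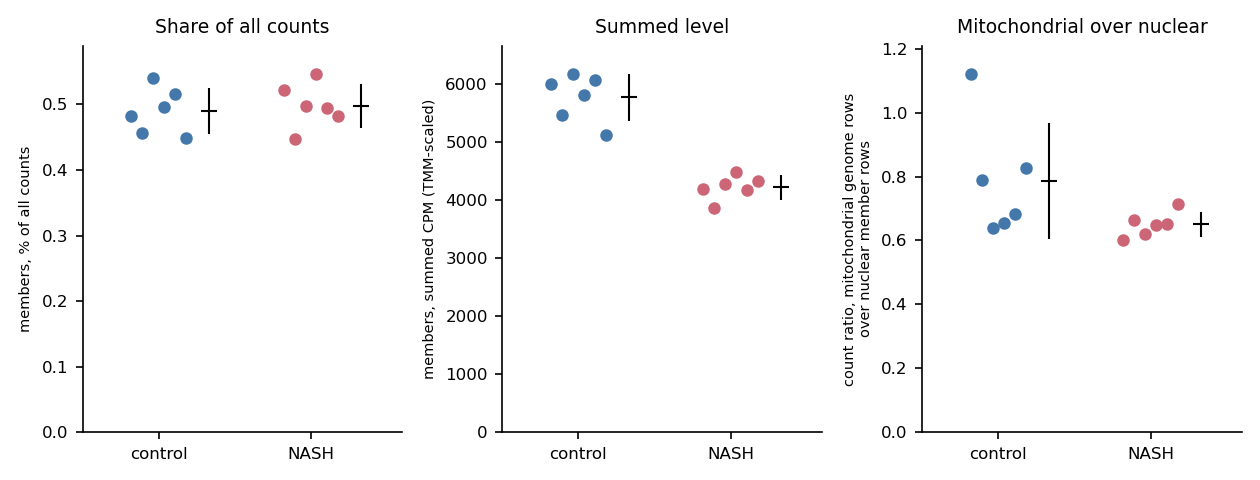
In each of the 6 control and 6 NASH animals (points, with mean ± SD; y axes from 0), the members' share of all counts in percent, their summed CPM with TMM scaling, and the ratio of counts on mitochondrial genome rows to counts on nuclear member rows of complexes III, IV and V. The shares overlap (0.449% to 0.540% in controls, 0.448% to 0.546% in NASH), the TMM-scaled sums do not (5128 to 6171 against 3859 to 4490 CPM), and Control 5 is highest in the ratio at 1.12.

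Subunits of the other complexes of the chain were lower as well. Of 33 nuclear subunits of complex I found of 37 listed, 29 were lower and 0 higher, with a median of -0.52, from *NDUFC2*, on a row with another symbol, at -0.81 to *NDUFV2* at -0.11 (edgeR adjusted p = 0.19). All 4 subunits of complex II, the succinate dehydrogenase that also serves the citric acid cycle, fell, from *SDHC* at -0.76 to *SDHB* at -0.33. Assembly factors fell in part. For complex III, 3 of 6 were lower, with *UQCC3* at -0.65 and *UQCC2* at 0.06 (edgeR adjusted p = 0.71). For complex IV, 14 of 22 were lower and 0 higher, with *CMC2*, a small protein of complex IV biogenesis, furthest at -1.27 ± 0.10 (edgeR adjusted p = 7.3e-07) and *TACO1*, which helps translate *MT-CO1* and shares its row with another symbol, at -0.09 (edgeR adjusted p = 0.53). The 22 include *NDUFA4*, lower at -0.57, which is a subunit of complex IV that the name rule left out of the members. For complex V, 5 of 6 were lower, from *DMAC2L* at -0.44 to *TMEM70* at -0.15 (edgeR adjusted p = 0.12).

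Genes that feed or control the chain gave mixed calls, to be read beside the 26.0% of all symbols called lower. Among carriers and suppliers of substrate, 2 of 6 found were lower, the ADP/ATP carrier *SLC25A4* at -0.82 ± 0.10 (edgeR adjusted p = 2.7e-05) and the phosphate carrier *SLC25A3* at -0.22 (edgeR adjusted p = 0.011). The transcript of *CS*, citrate synthase, had 0.10 ± 0.08 (edgeR adjusted p = 0.27). Mitochondrial content is often judged by the activity of this enzyme, which was not measured here. In coenzyme Q synthesis 5 of 10 were lower, with *COQ5* at -0.49, and 1 was higher, *COQ2* at 0.29. Of 12 regulators of mitochondrial genes, 5 were lower, with the helicase of mitochondrial DNA *TWNK* at -0.45, and 1 was higher, the coactivator *PPRC1* at 0.62 ± 0.17 (edgeR adjusted p = 0.0071). *PPARGC1A*, the best-known coactivator of the respiratory chain genes, had -0.07 ± 0.23 (edgeR adjusted p = 0.82).

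With library size alone these lists shifted upward together. Complex I nuclear subunits then had 6 lower and 4 higher with a median of -0.05, and complex II 2 lower and 0 higher with -0.09, beside 7.66% of all symbols lower and 63.9% higher. Assembly factors then had 0 lower and 1 higher of 6 for complex III, 2 lower and 7 higher of 22 for complex IV, and 0 lower and 2 higher of 6 for complex V, with medians of 0.22, 0.12 and 0.09. Of 6 carriers 1 was then lower and 5 higher, of 10 coenzyme Q genes 0 lower and 4 higher, and of 12 regulators 0 lower and 5 higher. None of these shares was tested against that of all symbols.

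**Figure D5:**
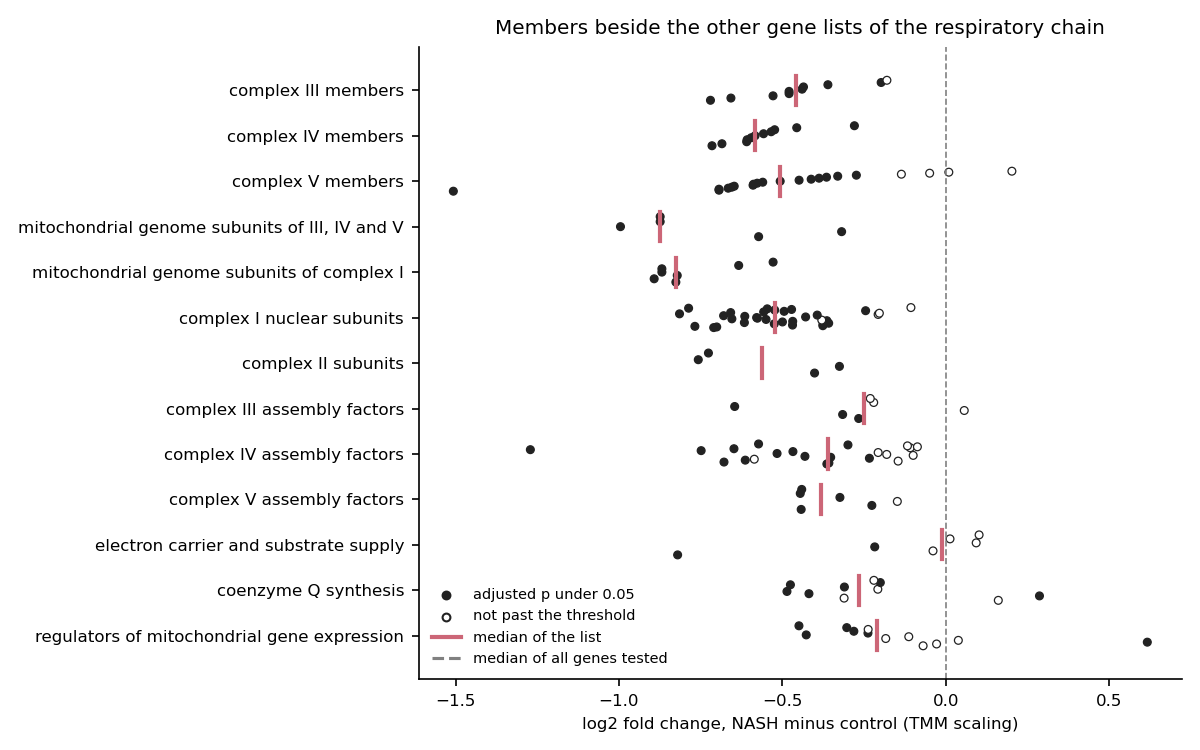
Log2 fold change (NASH minus control, TMM scaling, x axis) of every symbol of the member complexes and of 10 other lists of the respiratory chain; filled points passed edgeR's test, open points did not, and a bar marks each list's median. The 3 member complexes, complexes I and II and the mitochondrial genome lists have medians between -0.87 and -0.46, and the dashed line marks all symbols at 0.00; with library size alone the medians of all symbols and of the lists move up by about 0.5, so that those of complex III, the assembly factors, carriers, coenzyme Q and regulators turn positive.

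Markers of liver cell types differed between the groups as well, and in bulk tissue fewer cells of a type and less RNA per cell cannot be told apart. Hepatocyte markers were lower for 7 of 8, with a median of -0.87, from *TTR* at -2.20 to *FGB* at -0.52; with library size alone 4 of 8 were lower and 0 higher, with a median of -0.40. Their summed level ran from 102430 to 124280 CPM in controls and from 43572 to 66501 CPM in NASH. The summed members over these sums were at 0.0439 to 0.0602 in controls and at 0.0650 to 0.103 in NASH, with no overlap, and albumin (*ALB*, -1.29) made up most of the sums. *FGB*, *APOB* at -0.58 and *SERPINA1* at -0.64 had log2 fold changes near the members' median of -0.53, and the other 5 lay further below 0: *ALB*, *TTR*, *ARG1* at -1.30, *CPS1* at -0.91 and *APOA1* at -0.83, which did not pass the test (edgeR adjusted p = 0.060).

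Marker transcripts of several other cell types were higher. Cholangiocyte markers were higher for 5 of 5, with a median of 3.09 and sums of 73.2 to 115 CPM in controls and 302 to 539 CPM in NASH, from *KRT19* at 1.64 to *EPCAM* at 3.22. Markers of stellate cells and fibroblasts were higher for 7 of 7, with a median of 1.79 and sums of 580 to 691 and 1175 to 2425 CPM, from *DCN* at 0.62 to *COL1A1* at 4.21. Erythroid markers were higher for 3 of 3, with sums of 57.0 to 171 and 426 to 4524 CPM, from *HBA1* at 3.79, on a row with another symbol, to *SLC4A1*, which 3 controls had at 0. NASH 41 and NASH 65, at 4524 and 3275 CPM, stood apart from the other 4 NASH animals, at 426 to 725 CPM. With library size alone, the counts for these 3 lists were the same.

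Endothelial markers were higher for 3 of 5, with sums of 345 to 483 and 436 to 661 CPM, from *CDH5* at 0.00 (edgeR adjusted p = 0.98) to *VWF* at 1.46. Macrophage markers were higher for 1 of 4 and lower for 1, with sums of 312 to 385 and 395 to 466 CPM; *CD68* stood at 0.69 and *MARCO* at -1.27. Lymphocyte markers were higher for 2 of 6 and lower for 1, with sums of 58.9 to 113 and 40.0 to 73.2 CPM, *CD79A* at 1.49 and *CD3E* at -1.06. The shares of macrophage and lymphocyte markers called higher are to be read beside the 27.9% of all symbols. With library size alone, 4 of 5 endothelial markers were higher and 0 lower, 3 of 4 macrophage markers higher and 1 lower, and 3 of 6 lymphocyte markers higher and 1 lower, beside 63.9% of all symbols higher. The part of these cell types in the members' values was not tested.

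Markers of tissues with their own respiratory isoforms were found in part, 4 of 7 for striated muscle, 2 of 4 for brown adipocytes and 1 of 4 for testis. Striated muscle markers were higher for 1 of 4, *TNNI3*, which did not exceed 1.94 CPM in any animal and was at 0 in 4 controls. This share is to be read beside the 27.9% of all symbols called higher. With library size alone it was 1 of 4 too, beside 63.9% of all symbols. The sums of these markers were 13.4 to 30.6 CPM in controls and 11.9 to 26.4 CPM in NASH, with *MYL2* at -0.41 (edgeR adjusted p = 0.27). Of 2 brown adipocyte markers found, *CIDEA*, which fatty liver can also express, fell by 2.95 on the log2 scale (19.4 to 36.4 CPM in controls, 1.90 to 6.25 CPM in NASH), and the sums were 30.2 to 55.6 and 12.3 to 18.8 CPM. The single testis marker found, *DDX4*, was at 0 in all controls and between 0.408 and 2.73 CPM in NASH (edgeR adjusted p = 0.00084).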

How the data were processed

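Per the study's methods, the authors sequenced poly(A)-selected, stranded liver RNA in single reads, trimmed with Trimmomatic 0.38.0, mapped to Cavpor3.0 with HISAT2 2.1.0, ignored multimapped reads and quantified with StringTie 1.3.6. Ignoring such reads can lower genes with near-identical copies. The authors deposited raw counts by locus without symbols, and rlog values (log2 scale, DESeq2) by human orthologue symbol for genes with at least 200 counts in total. Symbols were tied to count rows by repeating rlog, and the repeated and deposited values of all 11896 symbols differed by at most 8.4e-07. Reads of symbols on 1 row cannot be separated.

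Counts were tested with edgeR 4.0.16 in R 4.3.3 (TMM factors, whole count table as library size, robust glmQLFit, glmQLFTest, adjusted p under 0.05 over 11896 symbols). On simulated counts this fit recovered 45% of 100 rows changed 1.5-fold and 97% of 100 changed 4-fold. The simulation changed few rows, as many up as down, so it did not check the scaling. CPM used TMM-scaled library sizes, and ratios log2 CPM with a prior count of 2. The SE is the log2 fold change over the square root of F. Plots used matplotlib 3.10.9 under Python 3.11.15. Alternatives were other scalings, DESeq2 1.42.0, limma 3.58.1 (voom, and on rlog), other filters and thresholds, and each animal left out. Values in every animal are given as lowest, median and highest for the 2 lowest and the highest member of each complex, members that did not pass the test and pairs that did, and lists are shown by their lowest and highest gene. Other genes were named after their values were seen. Members and lists were chosen with earlier results of these data known. No protein, promoter or genome position was used here.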

Additional observations from a re-analysis of the deposited data

Results flagged for a closer look

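Single animals stood apart from the other 5 of their group, by the share of the group's range that separates them from the nearest animal, in 17 of the 108 sets of 6 values examined. Chance alone flags about 1 set in 20, and sets that share an animal are not independent.

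Control 31 was highest for *COX4I1* at 243.2 CPM (others up to 194.2), *ATP5PO* at 188.5 (up to 158.6), *ATP5F1D* at 58.5 (up to 44.9), *ATP5MC1* at 84.3 (up to 63.5) and *ATP5MC1.1* at 19.4 (up to 14.4). Its log2 ratio of *UQCRC1* to *UQCRC2* was -0.631, above the -0.945 of the next control. Without Control 31 the members still had 37 lower and 0 higher. NASH 9 was lowest for *COX6C* at 120.5 CPM (others from 142), *ATP5MD* at 78.1 (from 94.4), *UQCRFS1* at 89.3 (from 97.2) and the summed complex III members at 777.13 (from 836.42). Without NASH 9, 36 members were lower.

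Control 5 was highest in the mitochondrial genome rows: *MT-CYB* at 117.55 CPM (others up to 91.02), *MT-CO1* at 1680.42 (up to 1210.95), *MT-CO2* at 1501.35 (up to 920.7), and *MT-CO3*, on the row shared with *MT-ATP6*, at 3418.09 (up to 2156.21). Its share of counts on mitochondrial genome rows was 0.9853%, against 0.6919% at most in other controls. Control 56 was lowest for *ATP5MF.PTCD1* at 1.8 CPM (others from 3.1). NASH 11 had a log2 ratio of *COX7A2L* to *COX7A2* of -0.514, against -1.333 at most in the other NASH animals.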

How the results depend on the processing

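The count of members lower in NASH (37) was within 1.5 times under RLE and upper-quartile factors, DESeq2, limma-voom, limma on rlog, every row with a count, filterByExpr and an adjusted p under 0.01, between 32 and 38. It was 7 with library size alone and 8 in a test against a log2 fold change of 0.5. The count higher was 6 with library size alone and 1 with upper-quartile factors. Leaving out each animal gave 36 to 38 lower and 0 to 1 higher, the 1 being *ATP5MC3* without Control 45. On rlog values, which are shrunken, the members' median was -0.32.

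With library size alone these log2 fold changes changed sign: *COX7A2L* 0.19, *COX8A* 0.0196, *UQCRFS1* 0.28, *UQCRQ* 0.30, *CYC1* 0.11, *UQCRC1* 0.0384, *UQCRC2* 0.0366, *ATP5IF1* 0.43, *ATP5PB* 0.0902, *ATP5MPL.1* 0.20, *ATP5F1E* 0.0628, *ATP5F1D* 0.14, *ATP5F1B* 0.34, *ATP5MD* 0.0299 and *ATP5F1A* 0.11. By its construction this alternative moves the median of all symbols up, to 0.48. Near 0, *ATP5IF1* turned to 0.0271 with upper-quartile factors, 0.0363 with every row with a count and 0.0002 without Control 5 (-0.1212 at the other end, without Control 56), and *ATP5MF.PTCD1* to -0.0045 with limma-voom, -0.0958 without Control 56, -0.0723 without NASH 9 and -0.0151 without NASH 11 (0.0621 at most, without Control 45); the cause was not tested.

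The log2 ratio of *ATP5MC1* to *ATP5MC3* passed under every alternative run, from -0.85 to -0.48. That of *COX7A2L* to *COX7A2* was between 0.17 and 0.38 with animals left out and passed without Control 10 (0.38, exact permutation test, adjusted p = 0.049). That of *UQCRC1* to *UQCRC2* reached 0.0766 without Control 31 and was negative without Control 45, NASH 2, NASH 41 or NASH 65 (-0.0232, -0.0255, -0.0108 and -0.0236). No paired or blocked analysis was possible because the labels name no pairs or blocks. Per the study's methods, animals were block-randomised by body weight. Depth limits most *ATP5MF.PTCD1*, at 1.8 to 3.9 CPM.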
